A study of Rattus norvegicus with 10 samples.

Results

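Solute carriers (Slc genes) move ions, nutrients and metabolites across cell membranes, and the members described here are the mitochondrial carriers of family 25 together with the smaller families of the plasma membrane, lysosome, Golgi and endoplasmic reticulum. They were chosen by gene symbol alone: every probe set with 1 symbol of the Slc form, leaving out families 1 to 5, 7 to 9, 12, 20, 22 and 34, which hold most glucose, bicarbonate, sodium-proton, cation-chloride, phosphate and organic ion transporters. The rule took 157 genes with 194 probe sets in 36 families, of 10412 genes with 12789 single-symbol probe sets on the array. Family 25 held 30 of these genes with 33 probe sets, and the other families held 127 genes with 161 probe sets.

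Kidneys of rat fetuses were collected on day 22 of gestation, shortly before birth, from 2 groups of 5. The hyperinsulinemic group (replicates 6 to 10) came from Wistar mothers weighing 200 to 280 g that received a 2 mm insulin implant with slow release, placed beneath the skin a week before mating and again a week after it, and that ate a normal diet. The labels call these fetuses growth restricted. The normal group (replicates 1 to 5) came from normal mothers on a regular diet. Total RNA of each sample was hybridised to 1 Affymetrix rat array, and each probe set has a MAS5 signal, a linear intensity scaled to the same trimmed mean of 250 on every array. The labels give no litter, number of mothers, fetal sex or batch, so the p-values cover the spread among these 10 samples alone, some of which may be technical.

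The carriers of family 25 sit mostly in the inner mitochondrial membrane, which is closed to charged metabolites, and exchange nucleotides, phosphate, di- and tricarboxylates, amino acids, acylcarnitines and cofactors between the cytosol and the matrix. The proximal tubule of the kidney is rich in mitochondria and burns fatty acids, lactate and citrate to reabsorb the filtrate. The other families bring in those fuels at the plasma membrane (Slc13, Slc16, Slc27), recover imino acids, peptides and vitamins (Slc6, Slc15, Slc19, Slc23), handle zinc, iron and copper (Slc11, Slc30, Slc31, Slc39, Slc40) and load the Golgi with nucleotide sugars (Slc35).

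No member passed the test of a difference between the groups after adjustment over the whole table. Testing required a signal at or above the array's 40th percentile on 5 or more arrays, and 124 member probe sets of 110 genes met this among 9601 in all. Groups were compared with limma on log2(signal + 16), so every log2 difference below is hyperinsulinemic minus normal on that scale and understates the change of dim probe sets. With Benjamini-Hochberg adjustment limma called 0 of the 124 members at 0.05, beside 0.0104% of all tested probe sets. At an unadjusted p under 0.05, 3 members were higher (2.42%) and 8 were lower (6.45%) in hyperinsulinemic kidneys, beside 2.44% and 2.93% of all tested probe sets. The exact permutation test gave 9 members in all below that unadjusted level. The count of 8 lower members was 5 without normal replicate 2 and 5 without hyperinsulinemic replicate 7.

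Most members differed little. The median log2 difference of the members was -0.01, against 0.002 for all tested probe sets, and 61 members were higher and 63 lower. No member had all 5 hyperinsulinemic values above all 5 normal values, beside 0.531% of all tested probe sets, and 1 member, Slc6a20a, had all 5 below, beside 0.51%. Differences beyond 0.2 in size were found for 11 of the 124 members (8.87%) and for 4.9% of all tested probe sets. In whole kidney, fewer cells of a type and less RNA per cell cannot be told apart.

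The arrays were checked before these values were read. Kidney markers were present in both groups: the 6 proximal tubule markers summed to 9276 to 9995 signal units in hyperinsulinemic kidneys and 9148 to 10011 in normal kidneys. Liver transcripts varied between samples, with the summed signal of the 7 tested liver genes at 1561 to 5205 in hyperinsulinemic kidneys and 1263 to 2681 in normal kidneys. Hyperinsulinemic replicate 6 had the most of them and the lowest median correlation with the other arrays, 0.974 against 0.980 to 0.984. Normal replicate 1 carried adrenal transcripts, with 218.4 units of Hsd3b1 against 1.5 to 6.3 on the other 9 arrays. Xist, the transcript of the inactive X chromosome, was at 42.4 to 70.5 units in hyperinsulinemic kidneys and 0.8 to 2 in normal kidneys (exact permutation p = 0.00794, the lowest value this design can reach), and the X-linked Eif2s3 was at 516 to 678 units in hyperinsulinemic kidneys and 234 to 436 in normal kidneys. Kdm5c, read with these 2 genes, had overlapping groups. It was at 93 to 144 units in hyperinsulinemic kidneys and 64.9 to 105 in normal kidneys (exact permutation p = 0.175). The labels give no fetal sex, and a difference in sex between the groups cannot be told apart from the implant in any of these comparisons. The part of these differences in the members' values was not tested beyond the values given with each result.

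Among the mitochondrial carriers 23 of the 33 probe sets, of 23 genes, could be tested. Of these 17 were higher (73.9%, beside 50.9% of all tested probe sets) and 6 lower in hyperinsulinemic kidneys. The median log2 difference was 0.04 and the range ran from -0.16 to 0.17. None was higher and 1, Slc25a12, was lower (4.35%) at an unadjusted p under 0.05 with limma. The shares of all tested probe sets were 2.44% and 2.93%. Transcripts listed as markers of mitochondrial content were close as well. Of 12 tested genes of the respiratory chain, ATP synthase, matrix and outer membrane, 9 were higher and 3 lower with a median of 0.02. Their signals summed to 24433 to 27770 units in hyperinsulinemic kidneys and 24538 to 26065 in normal kidneys. The amount of mitochondria itself was not measured.

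**Figure D1:**
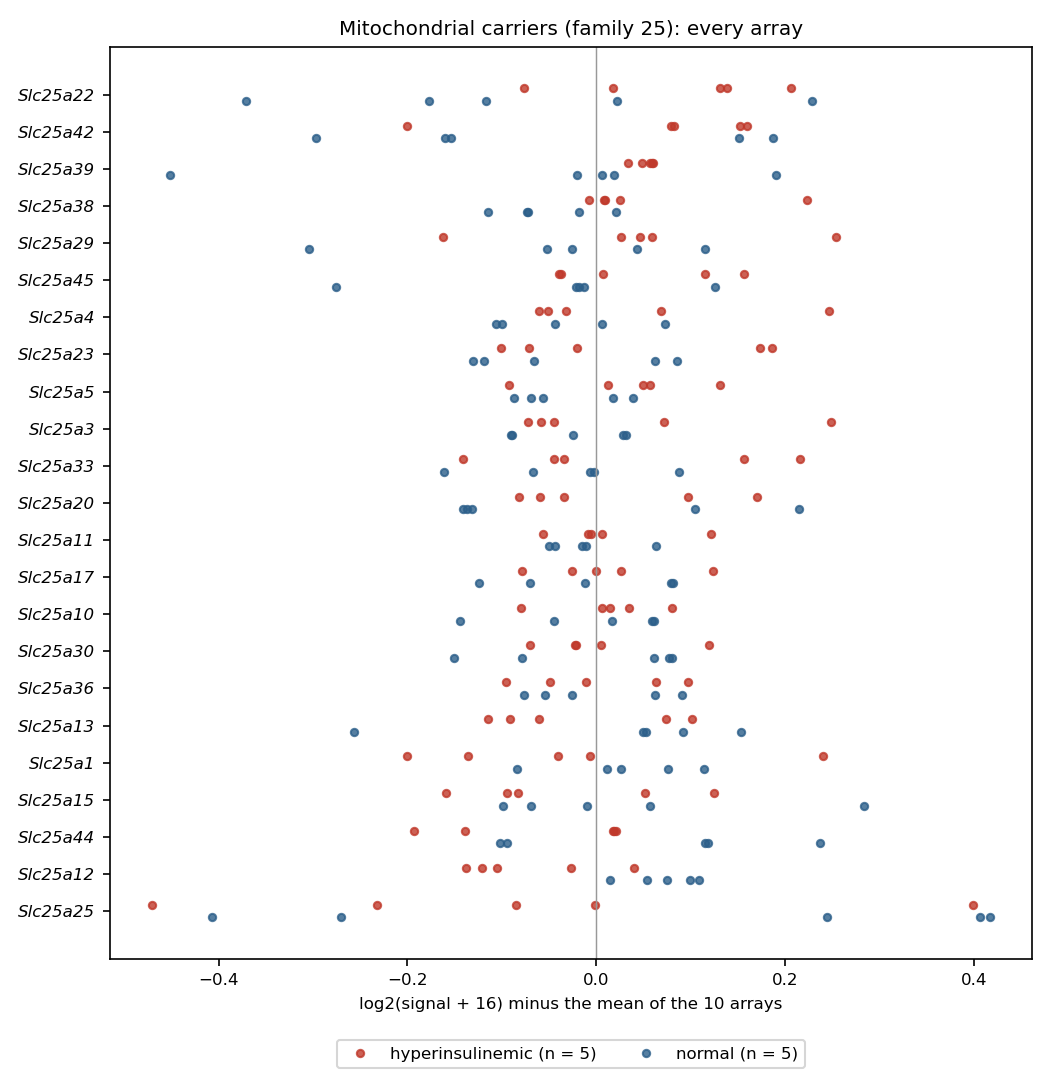
Each row is a tested mitochondrial carrier and each point an array, as log2(signal + 16) minus the mean of the 10 arrays for that carrier (horizontal axis); hyperinsulinemic points (red, 5 arrays) sit above normal points (blue, 5 arrays) in each row. The groups overlap for all 23 carriers, the lowest Slc25a39 point is normal replicate 1, and Slc25a25 spreads widest in both groups.

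The ADP/ATP translocases Slc25a4 and Slc25a5 and the phosphate carrier Slc25a3 supply ATP synthase with its substrates and release its product. The 3 promoters below belong to the translocase pair and to Slc25a12, the carrier with the smallest p, and show the bases from 250 before to 50 after the RefSeq transcript start on GRCr8, 5′ to 3′ on the gene's strand. Capitals mark the GC box letters GGGCGG and the CCAAT letters, read on both strands, so that CCGCCC and ATTGG are the reverse forms.
Slc25a4 (chr16:52805271-52805570, plus strand): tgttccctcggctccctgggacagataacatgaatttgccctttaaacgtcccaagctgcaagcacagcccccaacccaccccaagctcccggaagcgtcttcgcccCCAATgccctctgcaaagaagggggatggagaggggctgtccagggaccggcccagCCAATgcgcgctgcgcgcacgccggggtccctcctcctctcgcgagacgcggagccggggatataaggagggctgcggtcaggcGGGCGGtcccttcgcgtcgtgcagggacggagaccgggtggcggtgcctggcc
Slc25a5 (chrX:120897366-120897665, plus strand): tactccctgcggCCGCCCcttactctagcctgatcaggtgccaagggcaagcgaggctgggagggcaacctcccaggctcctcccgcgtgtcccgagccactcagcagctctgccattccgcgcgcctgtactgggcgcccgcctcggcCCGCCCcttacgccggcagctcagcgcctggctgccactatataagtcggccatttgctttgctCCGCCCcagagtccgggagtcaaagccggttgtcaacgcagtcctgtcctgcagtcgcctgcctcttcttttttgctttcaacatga
Slc25a12 (chr3:76599487-76599786, minus strand): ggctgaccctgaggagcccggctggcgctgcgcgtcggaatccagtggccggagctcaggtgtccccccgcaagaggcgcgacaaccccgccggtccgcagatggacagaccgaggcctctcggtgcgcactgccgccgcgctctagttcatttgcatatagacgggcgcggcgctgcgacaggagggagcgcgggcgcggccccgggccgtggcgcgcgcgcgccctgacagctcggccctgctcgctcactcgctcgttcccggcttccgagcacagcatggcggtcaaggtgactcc
The Slc25a4 window held 1 GC box and 2 CCAAT matches, the Slc25a5 window 3 GC boxes, and the Slc25a12 window 0 matches to either. These are letter matches in a window and say nothing of a factor's binding.

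Both translocases were a little higher on average in hyperinsulinemic kidneys, within the spread of the arrays. Signals are listed by replicate number, 6 to 10 in hyperinsulinemic kidneys and 1 to 5 in normal kidneys. Slc25a4 signals were 3102.9, 2854.4, 2891.4, 2834.2 and 3512.0 in hyperinsulinemic kidneys, against 2869.2, 2746.1, 2758.7, 2968.9 and 3111.9 in normal kidneys. Hyperinsulinemic replicate 10 was highest and the groups overlapped, with a log2 difference of 0.07 ± 0.06 (SE, limma adjusted p = 0.973). The X-linked Slc25a5 measured 3444.7, 3105.3, 3428.5, 3339.8 and 3626.3 in hyperinsulinemic kidneys, against 3117.5, 3155.2, 3183.1, 3351.2 and 3402.4 in normal kidneys, a difference of 0.06 ± 0.05 (SE, limma adjusted p = 0.973). Slc25a3 measured 3871.8, 3569.6, 3534.4, 3501.1 and 4378.4 in hyperinsulinemic kidneys, against 3458.5, 3620.3, 3459.3, 3755.9 and 3762.6 in normal kidneys, again with replicate 10 on top and the groups overlapping. Its difference was 0.06 ± 0.06 (SE), and the 95% intervals of the 3 genes were -0.07 to 0.21 for Slc25a4, -0.05 to 0.17 for Slc25a5 and -0.08 to 0.19 for Slc25a3.

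The carriers of the malate-aspartate shuttle, which brings cytosolic reducing equivalents into the matrix, held the mitochondrial carrier with the smallest p. Slc25a12, the calcium-regulated aspartate-glutamate carrier also called aralar, measured 279.2, 248.1, 245.1, 266.0 and 251.0 in hyperinsulinemic kidneys, against 291.7, 286.4, 293.6, 274.2 and 282.1 in normal kidneys. Hyperinsulinemic replicate 6, at 279.2, was the one array of its group inside the normal range of 274.2 to 293.6, and the other 4 lay below it. The log2 difference was -0.14 ± 0.06 (SE, limma unadjusted p = 0.0346, adjusted p = 0.918), with a 95% interval of -0.27 to -0.01. Over the 23 alternatives it ran from -0.18 to -0.12, and it missed an unadjusted p of 0.05 in 6 of them, each of which left out 1 array: normal replicate 1 (-0.13), 2 (-0.14) or 3 (-0.13), or hyperinsulinemic replicate 7 (-0.13), 8 (-0.12) or 10 (-0.13). Its relative Slc25a13, citrin, measured 683.0, 751.1, 766.0, 656.9 and 668.1 in hyperinsulinemic kidneys, against 794.6, 760.9, 738.2, 594.2 and 739.8 in normal kidneys. Normal replicate 4 was lowest, the groups overlapped, and the difference was -0.04 ± 0.08 (SE). The partner of both in the shuttle, the oxoglutarate-malate carrier Slc25a11, measured 1348.9, 1233.4, 1190.3, 1230.9 and 1243.8 in hyperinsulinemic kidneys, against 1195.2, 1228.7, 1201.0, 1225.6 and 1294.2 in normal kidneys, a difference of 0.02 ± 0.05 (SE) with overlapping groups.

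Carriers that export carbon for synthesis had overlapping groups. Slc25a1, the citrate carrier that feeds cytosolic acetyl-CoA for lipid synthesis, measured 629.8, 705.2, 722.5, 659.1 and 860.1 in hyperinsulinemic kidneys, against 684.2, 787.2, 766.2, 739.4 and 732.0 in normal kidneys. Replicate 10 was highest, 2 of the other hyperinsulinemic values lay within the normal range of 684.2 to 787.2 and 2 below it, for a difference of -0.06 ± 0.08 (SE). Slc25a10, the dicarboxylate carrier, measured 677.1, 686.8, 633.3, 673.2 and 709.3 in hyperinsulinemic kidneys, against 699.1, 649.4, 699.8, 678.2 and 604.9 in normal kidneys, a difference of 0.02 ± 0.06 (SE).

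Fatty acid entry into mitochondria passes through carnitine palmitoyltransferase and then the carnitine-acylcarnitine carrier Slc25a20. Slc25a20 measured 266.8, 262.4, 299.1, 315.6 and 271.7 in hyperinsulinemic kidneys, against 326.0, 252.0, 300.8, 251.2 and 253.0 in normal kidneys. The highest value was normal replicate 1 and the groups overlapped, with a difference of 0.04 ± 0.09 (SE) and an interval of -0.15 to 0.22. Of 30 listed partners of the carriers, 22 genes were tested, 12 higher and 10 lower. At a limma unadjusted p under 0.05, 2 of these genes were lower, Cpt1a and Cpt1b, beside 2.93% of all tested probe sets. Cpt1b differed by -0.34 ± 0.09 (SE, limma unadjusted p = 0.00154, adjusted p = 0.615), and the brighter probe set of Cpt1a differed by -0.20 ± 0.06 (SE, limma unadjusted p = 0.00387, adjusted p = 0.676). Another carnitine palmitoyltransferase of the list, Cpt2, differed by 0.02 ± 0.08, and the carnitine acetyltransferase Crat by 0.02 ± 0.10 (SE). The test of a difference between Slc25a20 and these enzymes was not run. Slc25a42, which imports coenzyme A, measured 229.4, 185.7, 228.8, 241.5 and 242.8 in hyperinsulinemic kidneys, against 192.3, 172.7, 191.4, 241.3 and 247.9 in normal kidneys, a difference of 0.11 ± 0.10 (SE) with overlapping groups.

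Carriers of amino acids and glutathione into the matrix held the highest difference of the family. Slc25a22, a glutamate carrier, had the highest difference, 0.17 ± 0.10 (SE, limma adjusted p = 0.953). It measured 291.1, 333.9, 271.7, 316.1 and 317.9 in hyperinsulinemic kidneys, against 218.6, 263.8, 292.0, 339.3 and 252.3 in normal kidneys, so the normal arrays enclosed all hyperinsulinemic ones. Slc25a15, the ornithine carrier of the urea cycle, measured 256.9, 301.8, 245.1, 259.1 and 286.1 in hyperinsulinemic kidneys, against 273.4, 287.1, 256.1, 261.8 and 338.6 in normal kidneys, with normal replicate 5 highest and a difference of -0.06 ± 0.08 (SE). Slc25a38, which brings glycine into the matrix for heme synthesis, measured 185.6, 215.4, 183.5, 183.3 and 181.1 in hyperinsulinemic kidneys, against 167.0, 172.5, 185.1, 179.7 and 172.4 in normal kidneys. Replicate 7 stood above the rest of its group, the other 4 lay at or near the upper end of the normal values, and the difference was 0.10 ± 0.07 (SE). Slc25a39, needed for mitochondrial glutathione, measured 920.0, 902.9, 912.6, 919.1 and 917.8 in hyperinsulinemic kidneys, against 640.5, 893.9, 885.8, 869.5 and 1008.5 in normal kidneys. The hyperinsulinemic values lay close together, while the normal values ran both lower and higher, the lowest in replicate 1, the array with adrenal transcripts. Its difference was 0.10 ± 0.09 (SE) and 0.0025 to 0.16 when 1 array at a time was left out.

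The remaining tested carriers are described by their range. They were the peroxisomal carrier Slc25a17, the ATP-magnesium/phosphate carriers Slc25a23 and Slc25a25, the basic amino acid carrier Slc25a29, the kidney mitochondrial carrier Slc25a30, the pyrimidine nucleotide carriers Slc25a33 and Slc25a36, the branched-chain amino acid carrier Slc25a44, and Slc25a45. Their differences ran from -0.16 for Slc25a25 to 0.09 for Slc25a29, and their groups overlapped. Slc25a25 was the most variable carrier, with signals of 150.8, 110.4, 103.3, 75.3 and 91.7 in hyperinsulinemic kidneys, against 152.9, 133.9, 151.7, 79.4 and 88.9 in normal kidneys, both groups holding low and high arrays.

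**Figure D2:**
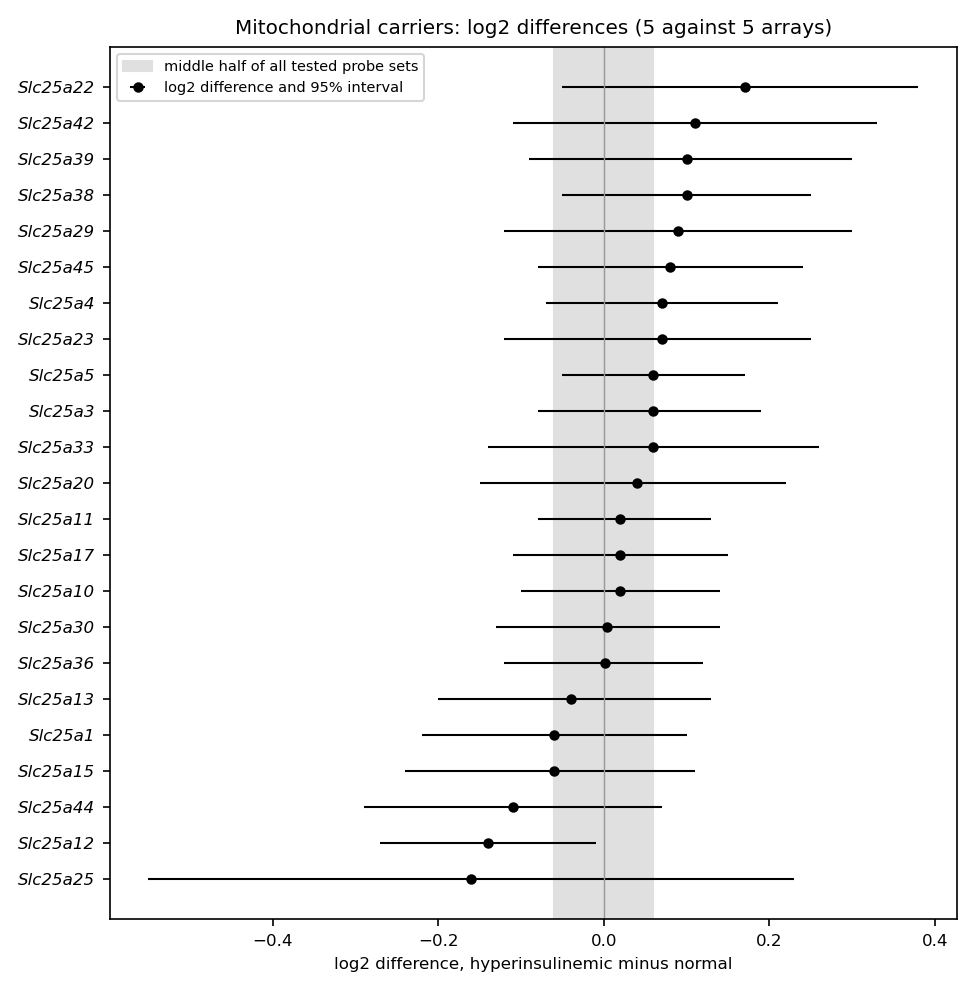
The horizontal axis is the log2 difference, hyperinsulinemic minus normal, of each tested mitochondrial carrier (rows), with its 95% interval from limma (lines) and the middle 50% of all tested probe sets (grey band, -0.06 to 0.06). The intervals span 0 for 22 of the 23 carriers, Slc25a12 being the exception, and the widest belongs to Slc25a25.

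The intervals of the mitochondrial carriers were narrow. They cover the spread among these samples alone and do not bound an effect of the implant, from which a difference in sex cannot be told apart. The 95% intervals of 22 of the 23 lay within 0.5 log2 units of 0, and the largest fold that any interval reached was 1.46. That fold is on the scale with the added constant, which understates the change of dim probe sets. The median coefficient of variation was 7.72% in hyperinsulinemic kidneys and 7.56% in normal kidneys for these carriers, and 10.8% and 9.63% for the other members. Below the filter were 10 probe sets of 7 carrier genes: Slc25a14, Slc25a18, Slc25a21, Slc25a27, Slc25a34, Slc25a35 and Slc25a48. Their signals ran from 2.1 units for Slc25a35 to 111.9 for Slc25a14, and no difference was fitted for them.

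The other families are grouped whole by a main solute of the family, so a group can hold members that carry other solutes. They are given in order of their place in renal fuel and solute handling. Their 101 tested probe sets had 44 higher and 57 lower values, a median log2 difference of -0.02, and 3 higher and 7 lower members at an unadjusted p under 0.05, beside the 2.44% and 2.93% above.

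**Figure D3:**
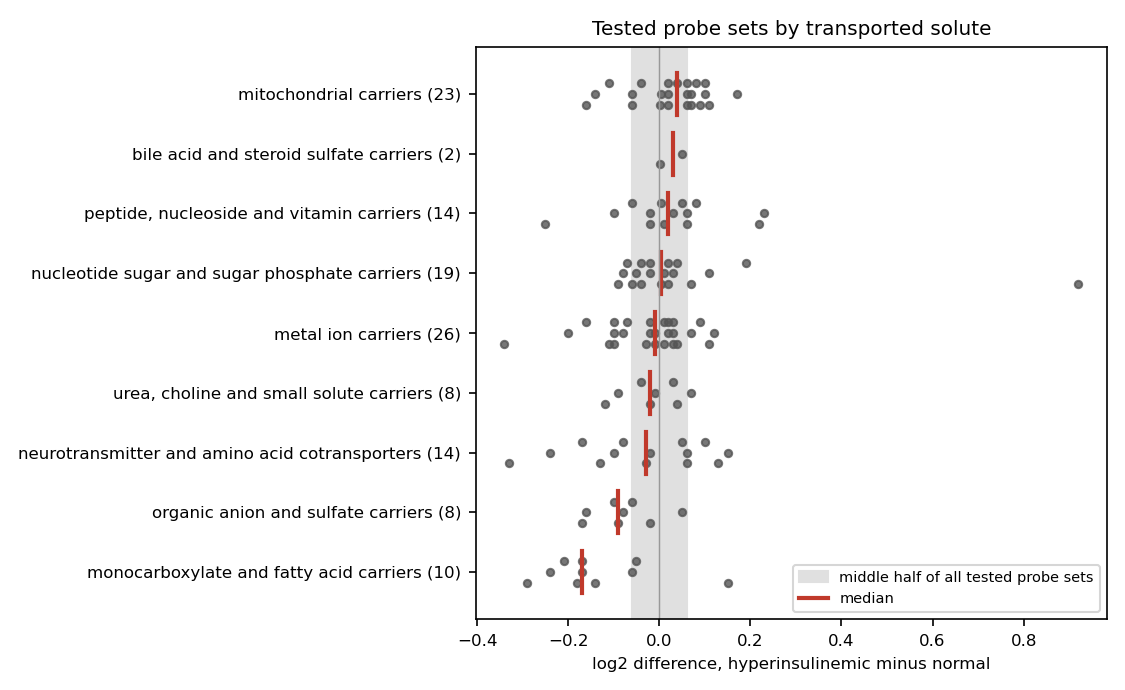
Points are the tested probe sets of each group of carriers (rows, number in brackets) at their log2 difference, hyperinsulinemic minus normal (horizontal axis); red bars are the group medians and the grey band the middle 50% of all tested probe sets. The 10 monocarboxylate and fatty acid probe sets have the lowest median, -0.17, with 9 of 10 below 0, and the point at 0.92 is Slc37a1.

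Monocarboxylate and fatty acid carriers, families 16 and 27, were the group with the lowest median. Of the 10 tested probe sets 9 were lower (90%, beside 49.1% of all tested probe sets) and 1 higher. The median was -0.17 against 0.002 for all tested probe sets. At a limma unadjusted p under 0.05, 2 were lower (20%, beside 2.93% of all tested probe sets). Across 22 settings that kept the same probe sets, 8 or 9 were lower and the median ran from -0.19 to -0.09, the value nearest 0 being that with the liver markers as a covariate. Liver transcripts and stromal markers differed on average too: 6 of 7 tested liver genes were higher with a median of 0.85, and all 6 tested stromal genes were lower with a median of -0.16. The liver transcripts varied by array. Albumin transcript was highest on hyperinsulinemic replicate 6 (1741.9) and normal replicate 4 (842.2), and its groups overlapped (exact permutation p = 0.437). Nephron markers were mixed. Of the proximal tubule markers 3 were higher and 3 lower with a median of -0.0024, the lowest being the glucose carrier Slc5a2 at -0.29 ± 0.10 (SE, limma unadjusted p = 0.0104, adjusted p = 0.87). Markers of the loop of Henle and distal tubule were lower in 4 of 5, with a median of -0.14, and Cldn10 at -0.29 ± 0.08 (SE, limma unadjusted p = 0.00201, adjusted p = 0.628). Of the collecting duct markers 3 were higher and 2 lower with a median of 0.02, and Aqp2 was at 0.45 ± 0.11 (SE, limma unadjusted p = 0.00118, adjusted p = 0.54). Their part in the group's values was not tested.

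Slc16a10, placed here by its family although it carries aromatic amino acids and thyroid hormone, had the smallest p of the group. It measured 74.4, 73.0, 93.8, 74.0 and 62.5 in hyperinsulinemic kidneys, against 101.0, 91.1, 106.9, 84.5 and 94.7 in normal kidneys. Replicate 8, at 93.8, was the only hyperinsulinemic value inside the normal range, and the other 4 lay below it. Normal replicates 1, 2, 3 and 5 and hyperinsulinemic replicate 8 lay above the cut of the filter on their array. All other values lay below that cut. Slc16a10 thus met the filter on the fewest arrays allowed, mostly those of the group where its signal was higher. The difference was -0.29 ± 0.10 (SE, limma unadjusted p = 0.0123, adjusted p = 0.87), and it kept an unadjusted p under 0.05 in the 22 alternatives that tested it; under the filter on all 10 arrays it was not tested. Slc16a1, the lactate and pyruvate carrier MCT1, measured 482.4, 525.3, 580.3, 503.1 and 458.7 in hyperinsulinemic kidneys, against 584.8, 562.2, 543.5, 519.1 and 597.3 in normal kidneys. Of the hyperinsulinemic values 3 lay below all normal values and replicate 8 lay among the higher normal ones, for a difference of -0.14 ± 0.07 (SE, limma adjusted p = 0.934).

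Slc16a12 had 2 probe sets that leaned the same way. The first, by far the more variable, measured 403.1, 582.1, 653.8, 535.2 and 418.9 in hyperinsulinemic kidneys, against 684.3, 643.9, 656.9, 500.8 and 494.1 in normal kidneys, a difference of -0.21 ± 0.13 (SE). The second measured 280.3, 308.5, 377.3, 290.9 and 327.7 in hyperinsulinemic kidneys, against 348.9, 384.2, 388.9, 330.9 and 334.8 in normal kidneys, a difference of -0.17 ± 0.08 (SE). In both the groups overlapped and replicate 8 was the highest hyperinsulinemic array. Slc16a6 differed by -0.24 ± 0.12 and Slc16a3, the lactate exporter MCT4, by -0.17 ± 0.15 (SE), each with overlapping groups and 1 or 2 high normal arrays.

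The fatty acid transport proteins of family 27 take up long-chain fatty acids and activate them to acyl-CoA. Slc27a2, a protein of proximal tubule and liver, measured 463.8, 383.3, 455.8, 406.7 and 469.4 in hyperinsulinemic kidneys, against 463.1, 551.9, 424.3, 521.7 and 520.6 in normal kidneys. The hyperinsulinemic values ended at 469.4, while 3 of the 5 normal values were above 520 and the other 2 lay inside the hyperinsulinemic range. Its difference was -0.18 ± 0.08 (SE, limma unadjusted p = 0.0421, adjusted p = 0.918), and an unadjusted p under 0.05 was kept in 15 of 23 alternatives. Among the alternatives that lost it were those without normal replicate 2 (-0.14), normal replicate 4 (-0.16), normal replicate 5 (-0.16), hyperinsulinemic replicate 7 (-0.14) and hyperinsulinemic replicate 9 (-0.16). The exact permutation p, not counted in those 23, was 0.0714. Slc27a1 and Slc27a3 differed by -0.06 and -0.05. Slc27a4 was the one probe set of the group above 0, at 0.15 ± 0.13 (SE), and measured 250.8, 403.1, 328.7, 268.7 and 361.7 in hyperinsulinemic kidneys, against 309.8, 237.1, 249.6, 353.9 and 286.2 in normal kidneys, with overlapping groups.

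Organic anion and sulfate carriers had 1 higher and 7 lower probe sets of 8 tested (87.5% lower, beside 49.1% of all tested probe sets). Their median was -0.09, and none had a limma unadjusted p under 0.05. Across the same 22 settings 6 to 8 were lower and the median ran from -0.1 to -0.04. The sodium-dicarboxylate cotransporters recover citrate and succinate from filtrate and blood. Slc13a2, the apical form, measured 282.1, 278.0, 289.7, 295.0 and 349.3 in hyperinsulinemic kidneys, against 359.2, 368.4, 281.9, 329.5 and 337.2 in normal kidneys, with 4 of the hyperinsulinemic values below all but the lowest normal one and a difference of -0.16 ± 0.08 (SE, limma adjusted p = 0.941). Slc13a3, the basolateral form, measured 399.5, 464.7, 438.9, 486.3 and 602.4 in hyperinsulinemic kidneys, against 562.0, 569.1, 561.1, 473.8 and 520.1 in normal kidneys. Replicate 10 had the highest value of all and replicate 6, the array rich in liver transcripts, the lowest, and the difference was -0.17 ± 0.09 (SE, limma adjusted p = 0.941). With the liver markers as a covariate it was 0.01.

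The sulfate carriers of the tubule were closer. The brighter Slc13a1 probe set measured 227.9, 214.7, 254.9, 246.9 and 222.6 in hyperinsulinemic kidneys, against 244.6, 254.0, 212.3, 236.3 and 233.7 in normal kidneys, a difference of -0.02 ± 0.07 (SE), and the other probe set differed by -0.10. Slc26a1, the sulfate-anion exchanger, measured 295.6, 302.8, 312.6, 312.2 and 360.2 in hyperinsulinemic kidneys, against 292.8, 358.7, 306.4, 343.3 and 384.4 in normal kidneys, a difference of -0.08 ± 0.08 (SE). In both genes the groups overlapped. Slc17a1, a urate and phosphate carrier of the apical membrane, differed by -0.06 ± 0.07, and the lysosomal sialic acid exporter Slc17a5 by -0.09 ± 0.07 (SE).

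Carriers of amino acids and related solutes had 6 higher and 8 lower of 14 tested probe sets and a median of -0.03. Slc6a20a, an imino acid cotransporter that recovers proline in kidney and gut, was the one member of the whole set whose groups did not overlap. Its promoter on GRCr8, shown because of that separation, held 0 GC boxes and 0 CCAAT matches and so has no capitals.
Slc6a20a (chr8:132199851-132200150, minus strand): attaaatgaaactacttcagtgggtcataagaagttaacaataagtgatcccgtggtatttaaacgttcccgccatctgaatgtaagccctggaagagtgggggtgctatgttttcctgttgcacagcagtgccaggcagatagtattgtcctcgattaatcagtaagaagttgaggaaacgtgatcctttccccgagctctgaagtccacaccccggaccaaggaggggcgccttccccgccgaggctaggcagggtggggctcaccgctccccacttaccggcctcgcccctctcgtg
Slc6a20a measured 83.5, 88.9, 78.3, 60.0 and 87.1 in hyperinsulinemic kidneys, against 105.9, 95.4, 112.6, 112.5 and 93.1 in normal kidneys. The highest hyperinsulinemic value, 88.9, lay below the lowest normal value, 93.1, and replicate 9 was furthest down. Hyperinsulinemic replicates 8 and 9 lay below their array's 40th percentile and all normal values above it. The normal group, where the signal was higher, thus met the filter alone. The difference was -0.33 ± 0.10 (SE, limma unadjusted p = 0.00607, adjusted p = 0.81). It ran from -0.39 to -0.25 over 22 alternatives and had an unadjusted p under 0.05 in each of those 22. Under the filter on all 10 arrays it was not tested. The second Slc6a20a probe set, which reached the 40th percentile on 4 arrays and so was not tested, averaged 79.4 ± 7.93 in hyperinsulinemic kidneys and 80.6 ± 10.3 in normal kidneys (SD, n = 5 each), a log2 difference of -0.02 with overlapping groups. The separation therefore rests on 1 of 2 probe sets.

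All other tested carriers of this group had overlapping groups of arrays. Slc66a1, which exports cationic amino acids from lysosomes, measured 71.4, 97.6, 112.5, 110.2 and 89.4 in hyperinsulinemic kidneys, against 117.4, 121.3, 112.2, 120.8 and 105.2 in normal kidneys. Replicate 6 was lowest, 3 hyperinsulinemic values lay under the normal range and 2 inside it. The difference was -0.24 ± 0.11 (SE, limma unadjusted p = 0.0398, adjusted p = 0.918), with an unadjusted p under 0.05 in 11 of 22 alternatives; it was -0.17 with the liver markers as a covariate and -0.14 without the 2 arrays with the most albumin transcript, hyperinsulinemic replicate 6 and normal replicate 4. Slc66a2, of the same family, measured 306.5, 289.1, 291.1, 280.8 and 304.8 in hyperinsulinemic kidneys, against 259.8, 270.2, 238.1, 298.8 and 257.9 in normal kidneys. Normal replicate 4 lay within the hyperinsulinemic values and the other 4 normal values below them, for a difference of 0.15 ± 0.07 (SE, limma unadjusted p = 0.0454, adjusted p = 0.918), which was 0.08 with the liver covariate. Its unadjusted p was under 0.05 in 10 of 23 alternatives, and was lost when normal replicate 1, 2, 3 or 5 or hyperinsulinemic replicate 6, 7, 8 or 10 was left out.

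Creatine, taurine and glutamine carriers completed this group. The 2 probe sets of the X-linked creatine carrier Slc6a8 differed by -0.17 ± 0.09 and -0.02 ± 0.10 (SE), the first measuring 339.0, 420.4, 422.7, 318.1 and 354.5 in hyperinsulinemic kidneys, against 364.9, 445.8, 428.9, 387.9 and 468.5 in normal kidneys. The taurine carrier Slc6a6 measured 287.0, 198.5, 242.1, 231.0 and 277.2 in hyperinsulinemic kidneys, against 205.6, 253.9, 220.6, 175.7 and 270.3 in normal kidneys, a difference of 0.13 ± 0.12 (SE). Both had overlapping groups. The glutamine carrier Slc38a1 had probe sets of opposite sign, -0.10 ± 0.12 and 0.06 ± 0.07 (SE), so no direction is given for it. Slc38a2 differed by 0.06, Slc38a3 by -0.03, and Slc6a18, a neutral amino acid carrier of the proximal tubule, by -0.08.

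Metal ion carriers had the most tested probe sets of these groups, with 12 higher and 14 lower of 26 and a median of -0.01. At a limma unadjusted p under 0.05, 2 were lower (7.69%, beside 2.93% of all tested probe sets), both for zinc. Slc39a1, also called ZIP1, brings zinc into the cytosol. Its promoter, shown because the difference kept its p under all alternatives tried, carried 1 GC box and 1 CCAAT match, both in the reverse form and in capitals.
Slc39a1 (chr2:178000869-178001168, plus strand): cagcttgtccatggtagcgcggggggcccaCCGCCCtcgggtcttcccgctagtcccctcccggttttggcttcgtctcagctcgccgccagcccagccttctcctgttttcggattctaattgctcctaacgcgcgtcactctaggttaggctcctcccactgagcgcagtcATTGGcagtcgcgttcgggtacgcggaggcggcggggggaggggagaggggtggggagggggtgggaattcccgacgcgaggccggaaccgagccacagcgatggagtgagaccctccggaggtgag
Slc39a1 measured 774.9, 730.6, 618.2, 607.0 and 688.1 in hyperinsulinemic kidneys, against 811.0, 802.3, 785.7, 747.0 and 784.1 in normal kidneys. Replicate 6, at 774.9, was the only hyperinsulinemic value inside the normal range of 747.0 to 811.0. The difference was -0.20 ± 0.07 (SE, limma unadjusted p = 0.00997, adjusted p = 0.87). Over 23 alternatives it ran from -0.27 to -0.16 with an unadjusted p under 0.05 in each, and 0.241 was the lowest adjusted p that any of the 11 members reached under an alternative.

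Slc30a2, which moves zinc out of the cytosol into vesicles, measured 61.3, 70.6, 78.4, 91.8 and 113.6 in hyperinsulinemic kidneys, against 106.0, 104.4, 114.3, 118.6 and 94.9 in normal kidneys. Of the hyperinsulinemic values 4 lay below the normal range, and replicate 6 was lowest and replicate 10 highest. Hyperinsulinemic replicates 6, 7 and 8 lay below the cut of the filter on their array, and all normal values above it. The normal group, where the signal was higher, thus met the filter alone. Under the filter on all 10 arrays Slc30a2 was not tested. The difference was -0.34 ± 0.13 (SE, limma unadjusted p = 0.0173, adjusted p = 0.907), but -0.21 with the liver covariate (limma unadjusted p = 0.172) and -0.25 without hyperinsulinemic replicate 6. Iron and copper carriers had no unadjusted p under 0.05. Slc11a2, the iron importer DMT1, measured 1035.5, 1128.0, 967.1, 1036.6 and 1175.1 in hyperinsulinemic kidneys, against 1054.8, 1137.8, 1111.4, 1000.5 and 968.2 in normal kidneys, a difference of 0.02 ± 0.06 (SE). The iron exporter ferroportin, Slc40a1, differed by -0.16 ± 0.09 at its brighter probe set, where 2 normal arrays were high, and by -0.03 ± 0.09 at the other (SE). The 3 probe sets of the copper importer Slc31a1 differed by -0.10, -0.07 and -0.01. Slc39a8, a zinc and manganese carrier, differed by -0.01.

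Carriers of peptides, nucleosides and vitamins had 9 higher and 5 lower of 14 tested probe sets and a median of 0.02. Slc19a1, the reduced folate carrier, measured 270.0, 327.6, 267.2, 260.3 and 347.2 in hyperinsulinemic kidneys, against 277.6, 263.0, 252.5, 202.0 and 245.1 in normal kidneys. Replicates 7 and 10 lay above all normal values, the other 3 hyperinsulinemic values lay inside the normal range, and the difference was 0.23 ± 0.10 (SE, limma unadjusted p = 0.032, adjusted p = 0.918). It was 0.40 with the liver covariate, and without normal replicate 4, the lowest normal array, it was 0.16. Its unadjusted p was under 0.05 in 17 of 23 alternatives. It was lost with array weights, without the 2 arrays with the most albumin transcript, and without normal replicate 4 or 5 or hyperinsulinemic replicate 7 or 10, and the exact permutation p was 0.0714. Slc15a1, the low-affinity peptide carrier PEPT1, measured 186.1, 183.5, 245.0, 201.2 and 149.9 in hyperinsulinemic kidneys, against 227.2, 250.9, 214.1, 191.9 and 278.0 in normal kidneys. Replicates 8 and 9 lay among the normal values and replicate 10 was lowest, for a difference of -0.25 ± 0.12 (SE, limma unadjusted p = 0.0468, adjusted p = 0.919). That unadjusted p was under 0.05 in 10 of 23 alternatives, and the difference was -0.17 with array weights. The exact permutation p of Slc15a1, not counted in those 23, was 0.103. The high-affinity peptide carrier Slc15a2, the main form along the later proximal tubule, measured 204.7, 278.3, 247.9, 272.4 and 280.9 in hyperinsulinemic kidneys, against 290.4, 217.6, 235.9, 284.7 and 251.5 in normal kidneys, a difference of 0.0034 ± 0.10 (SE). The ascorbate carrier Slc23a1 differed by 0.06 ± 0.08 and the nucleoside carrier Slc29a1 by -0.06 ± 0.07 (SE).

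Carriers of nucleotide sugars and sugar phosphates had 10 higher and 9 lower of 19 tested probe sets and a median of 0.0033, and held the largest difference of all members. Slc37a1, a phosphate-linked glucose-6-phosphate exchanger of the endoplasmic reticulum, measured 108.9, 99.0, 132.9, 146.9 and 136.1 in hyperinsulinemic kidneys, against 28.6, 103.7, 47.9, 28.4 and 130.5 in normal kidneys. The hyperinsulinemic values lay together, while normal replicates 2 and 5 were near them and normal replicates 1, 3 and 4 were far lower. Those 3 normal values lay below the filter cut of their array, and all other values lay above it. The hyperinsulinemic group, where the signal was higher, thus met the filter alone. Under the filter on all 10 arrays Slc37a1 was not tested. The difference was 0.92 ± 0.29 (SE, 95% interval 0.30 to 1.53, limma unadjusted p = 0.00638, adjusted p = 0.816), the groups overlapped, and the exact permutation p was 0.0556. Leaving out 1 array at a time gave 0.73 to 1.16. Slc37a4, the glucose-6-phosphate translocase of gluconeogenesis, measured 881.4, 924.0, 889.9, 930.1 and 986.7 in hyperinsulinemic kidneys, against 979.6, 1014.2, 948.1, 966.1 and 916.9 in normal kidneys, a difference of -0.06 ± 0.05 (SE) with overlapping groups.

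The Golgi carriers of family 35 were even, with 9 higher and 6 lower of 15 tested probe sets. Slc35b1, an ATP/ADP exchanger of the endoplasmic reticulum, had the highest difference of the family, 0.19 ± 0.09 (SE, limma adjusted p = 0.934), at a probe set that measured 157.1, 158.4, 159.3, 161.0 and 141.3 in hyperinsulinemic kidneys, against 145.8, 104.1, 137.5, 135.4 and 154.2 in normal kidneys. Its other probe set differed by 0.04 ± 0.06 (SE). The 3 probe sets of the sialic acid nucleotide carrier Slc35a1 differed by 0.11, -0.02 and 0.03 and were not of 1 sign. The X-linked galactose nucleotide carrier Slc35a2 differed by -0.08 ± 0.10 and the acetyl-CoA carrier Slc33a1 by -0.07 ± 0.08 (SE).

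Urea and choline carriers had 3 higher and 5 lower of 8 tested probe sets and a median of -0.02. The 1 tested probe set of the urea carrier Slc14a2, which serves the concentrating mechanism of the inner medulla, measured 83.2, 82.6, 101.6, 103.3 and 86.7 in hyperinsulinemic kidneys, against 93.2, 75.4, 100.8, 104.9 and 98.2 in normal kidneys, a difference of -0.04 ± 0.10 (SE), and its 4 other probe sets were below the filter. The choline carrier Slc44a1 had 3 probe sets at -0.12, -0.09 and 0.03, of both signs. Of the bile acid carriers, Slc10a2 measured 120.6, 102.5, 99.9, 115.0 and 141.8 in hyperinsulinemic kidneys, against 104.3, 111.9, 115.7, 122.2 and 121.8 in normal kidneys, a difference of 0.0014 ± 0.09 (SE).

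**Figure D4:**
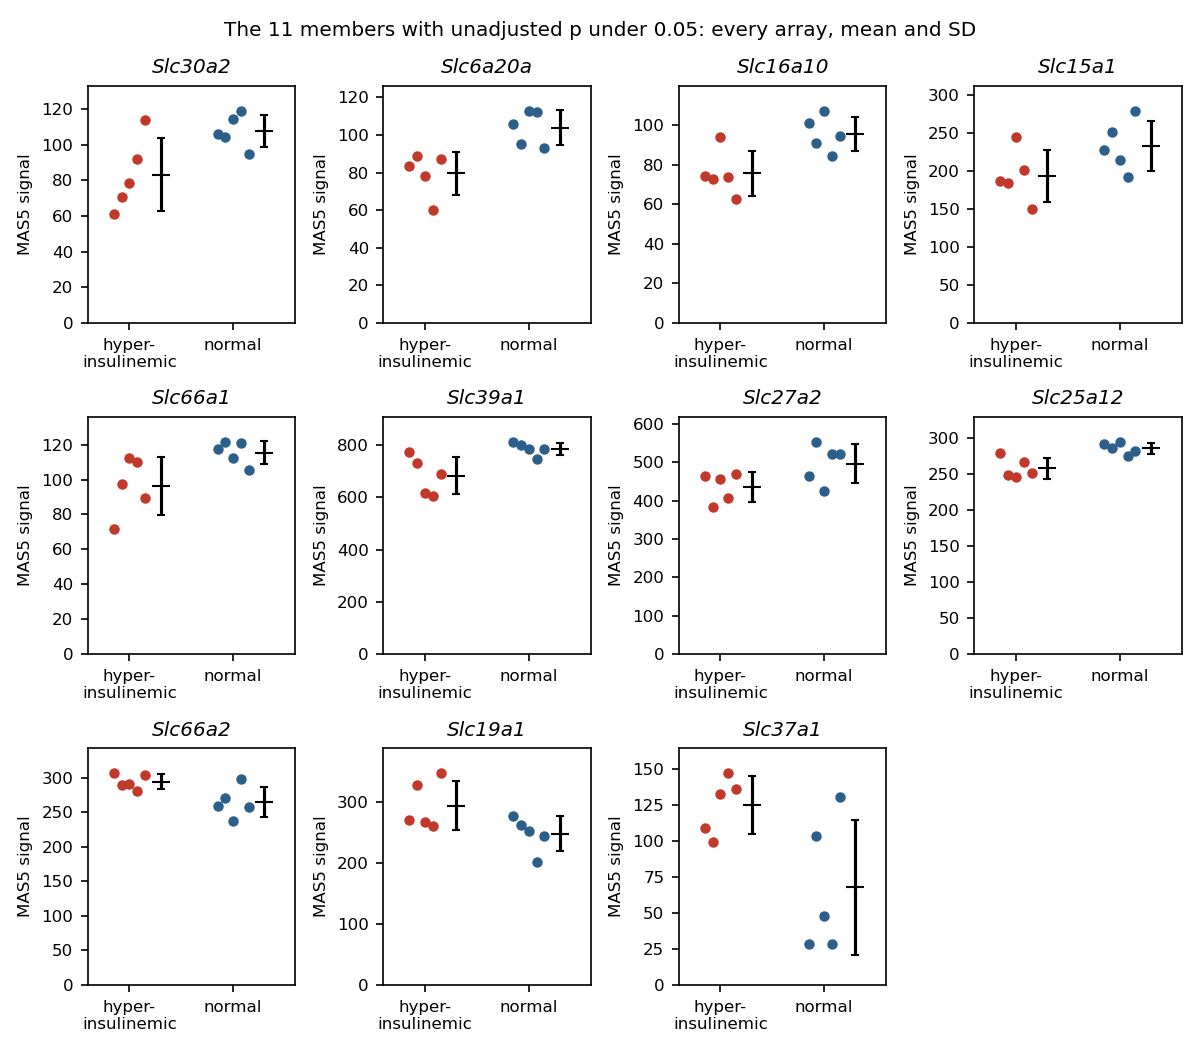
Each panel is 1 of the 11 members with an unadjusted p under 0.05; points are MAS5 signals (vertical axis, starting at 0) of the 5 hyperinsulinemic arrays (red, left) and the 5 normal arrays (blue, right), with the mean and SD of each group beside them. The groups are apart for Slc6a20a alone, and the 5 normal points of Slc37a1 split into 2 high and 3 low ones.

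Members with several probe sets and members on the X chromosome were compared among themselves. Of the 11 genes with more than 1 tested probe set, 3 (Slc38a1, Slc44a1 and Slc35a1) had differences of both signs, and the spread between probe sets of a gene reached 0.16. The 6 tested X-linked probe sets, of Slc25a5, Slc6a8, Slc35a2, Slc10a3 and Slc38a5, had 3 higher and 3 lower values, a median of 0.01 and a range from -0.17 to 0.06. Xist level and group could not be told apart in these samples, and these 5 genes had no common direction.

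**Figure D5:**
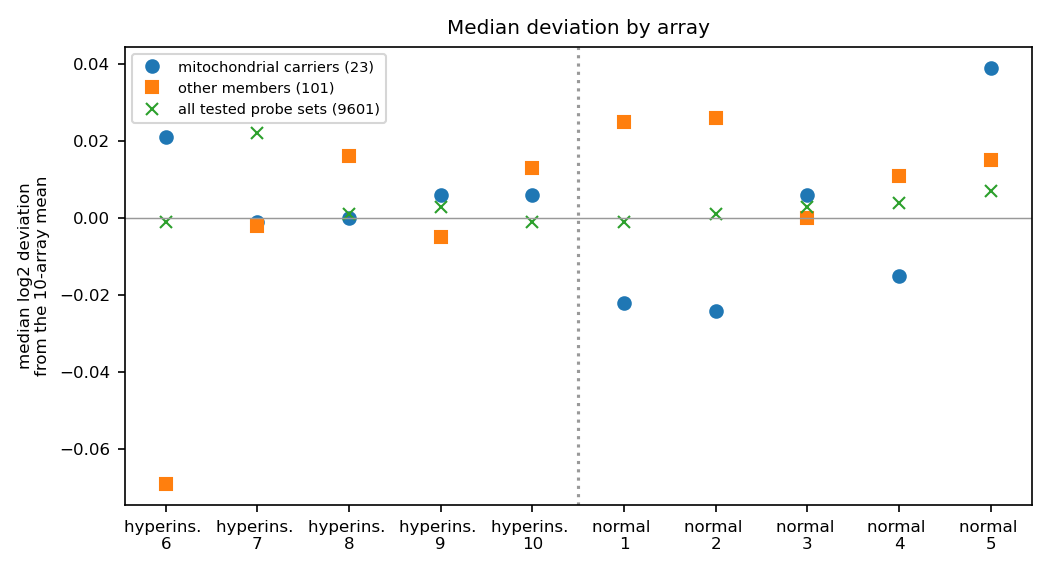
For each array (horizontal axis, hyperinsulinemic replicates 6 to 10 left of the dotted line, normal replicates 1 to 5 right of it) the median deviation of log2(signal + 16) from the mean of the 10 arrays is plotted over the mitochondrial carriers (circles), the other members (squares) and all tested probe sets (crosses). The other members are lowest on hyperinsulinemic replicate 6, at -0.069, and the highest circle is normal replicate 5, at 0.039.

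By array, the members outside family 25 shifted most on hyperinsulinemic replicate 6. There their median deviation was -0.069, against -0.005 to 0.016 on the other hyperinsulinemic arrays and at most 0.026 on the normal arrays. That array was lowest or highest of the 10 for 25.8% of the tested members, below its share of 32.2% among all tested probe sets. Hyperinsulinemic replicate 10 was lowest or highest for 29.8% of members and 27.8% of all. The mitochondrial carriers had a median deviation of 0.021 on replicate 6 and shifted most on normal replicate 5, at 0.039. All tested probe sets had a median deviation of -0.001 on hyperinsulinemic replicate 6 and 0.007 on normal replicate 5.

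Signals of 70 member probe sets did not pass the filter, and 47 genes had no tested probe set. On 58 of the 70 no array reached its 40th percentile, and in none of the 70 were the groups apart. They included the vesicular carriers of neurons (Slc17a6, Slc17a7, Slc18a1, Slc18a2, Slc18a3 and Slc32a1), the monoamine carriers Slc6a2, Slc6a3 and Slc6a4, the concentrative nucleoside carriers Slc28a1, Slc28a2 and Slc28a3, and the anion exchanger pendrin, Slc26a4. Of these genes only Slc6a3 reached an array's 40th percentile, at 1 of its 2 probe sets and on 2 arrays: hyperinsulinemic replicate 8 (93.0) and normal replicate 1 (88.2).

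The promoters of the members were compared with those of all genes as a description. RefSeq gave 29 promoters for 28 mitochondrial carrier genes, 113 for 106 other members and 33469 in all. The median content of G and C was 60.3% in mitochondrial carriers and 61.7% in other members, against 51.7% in all promoters. The GC box GGGCGG, on either strand, was present in 69% of mitochondrial carrier promoters and 59.3% of those of other members, against 33.1% of all. CCAAT on either strand was present in 62.1% and 32.7%, against 37.5% of all. The core motif of NRF1, a factor that drives many mitochondrial genes, was found on either strand in 0 of the 29 mitochondrial carrier promoters and in 9.73% of those of other members, against 4.25% of all. GC box and G and C content overlap by their letters, a match is not a bound site, and a window without one leaves sites elsewhere.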

How the data were processed

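Total RNA of 10 fetal rat kidney samples was measured on 1-colour Affymetrix arrays, 1 array per sample, and groups and replicate numbers were taken from the sample labels. The deposited values were linear intensity values that the authors summarised with MAS5, per the submitters' processing notes, with settings not given in the sources used here. Each array's trimmed mean (2% off each end) came to 250, and no further scaling was applied. Gene symbols came from GEO's platform annotation: 12789 of 15923 probe sets had 1 symbol, 312 several and 2822 none, and all 194 member probe sets matched the gene table of GRCr8 by Entrez identifier. Probe sets with several symbols gave no member.

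From the deposited values log2(signal + 16) was computed, 57 control probe sets were left out, and probe sets at or above the 40th percentile of the array on at least 5 arrays entered a two-sided limma fit (version 3.58.1 under R 4.3.3, moderated with an intensity trend), adjusted by Benjamini-Hochberg over all 9601 at a threshold of 0.05. For single values an exact two-sided permutation test was used. Errors are SE of the log2 difference, and the number of arrays limits the precision. The script was tested on simulated data. Members, role groups, marker lists and promoter motifs were chosen with earlier results of these data known. Named were every mitochondrial carrier with an unadjusted p under 0.05, up to 15 other members per direction with the smallest such p, fixed lists of well-known carriers at their brightest tested probe set, and the 4 genes whose probe sets differed most; further genes are given by value within their role group and were chosen after their values were seen. Alternatives were pseudocounts of 1 and 32, other filters, normalizations and variance models, array weights, covariates, other tests and the omission of arrays. Promoters, RefSeq on GRCr8, run from 250 bases before to 50 after the transcript start. Python 3.11.15 with matplotlib 3.10.9 drew the figures.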

Additional observations from a re-analysis of the deposited data

Results flagged for a closer look

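In each of 104 groups of 5 arrays, for the named members, the highest and lowest value were compared with the other 4, and 8 values stood apart from their group by more than Dixon's 95% limit for the gap relative to the range; chance flags about 1 in 20 groups. On hyperinsulinemic replicate 7, Slc25a38 was high at 215.4 (181.1 to 185.6 on the other 4), Slc25a42 was low at 185.7 (228.8 to 242.8) and Slc35a2 was low at 74.2 (100.2 to 110.7). On hyperinsulinemic replicate 10, Slc26a1 was high at 360.2 (295.6 to 312.6) and Slc38a3 was high at 150.3 (80.3 to 100.4). On the same array Slc39a8 was low at 261.4 (310.4 to 319.7) and 1 probe set of Slc35b1 was low at 141.3 (157.1 to 161.0). On normal replicate 4, Slc25a13 was low at 594.2 (738.2 to 794.6).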

How the results depend on the processing

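No member passed the adjusted threshold under any setting that gave an adjusted p. The exact permutation test, 1 of the 25 settings tried, was not adjusted and so could not make such a call. Among 52 named results 32 kept their sign throughout and 20 turned it under at least 1 setting. None of these 20 was a member with an unadjusted p under 0.05. Of the counts at unadjusted p under 0.05, lower members numbered 4 with the filter on all 10 arrays. With the liver covariate 5 were higher and 5 lower. Without the 2 arrays with the most albumin transcript 7 were higher, with 1 mitochondrial carrier higher and 2 lower. The exact permutation test gave 1 mitochondrial carrier higher. Leaving out 1 array at a time gave 5 to 12 lower members, 0 to 1 mitochondrial carriers higher and 0 to 1 lower; the lower one was lost without normal replicate 1, 2 or 3 and without hyperinsulinemic replicate 7, 8 or 10, and 1 was higher without normal replicate 4. Signs turned with array weights for Slc25a10 (-0.0027), Slc10a2 (-0.03), Slc11a2 (-0.03), Slc13a1 (0.02), Slc14a2 (0.04) and Slc39a8 (0.03). They turned with the Gapdh ratio as covariate for Slc10a2 (-0.02) and Slc39a8 (0.0034). With the liver covariate they turned for Slc25a1 (0.03), Slc25a11 (-0.01), Slc25a13 (0.04), Slc25a15 (0.01), Slc6a8 (0.09), Slc13a3 (0.01), Slc38a3 (0.15), Slc44a1 (-0.04) and Slc38a1 (0.0018). Without the 2 arrays with the most albumin transcript they turned for Slc25a11 (-0.01), Slc6a6 (-0.0038), Slc14a2 (0.02), Slc31a1 (0.02) and Slc38a1 (0.01). Without normal replicate 1 and hyperinsulinemic replicate 6, a setting chosen after seeing the data, they turned for Slc25a11 (-0.01), Slc25a13 (0.01), Slc6a8 (0.03), Slc10a2 (-0.04), Slc13a1 (0.0034), Slc38a3 (0.01), Slc39a8 (0.0034) and Slc44a1 (-0.03). Leaving out 1 array at a time turned Slc25a10 (-0.01 to 0.04), Slc25a11 (-0.0047 to 0.04), Slc25a20 (-0.0017 to 0.09), Slc6a8 (-0.1 to 0.04), Slc10a2 (-0.07 to 0.05), Slc11a2 (-0.02 to 0.05), Slc13a1 (-0.05 to 0.01), Slc15a2 (-0.05 to 0.08), Slc31a1 (-0.03 to 0.01), Slc35a2 (-0.13 to 0.0032), Slc38a3 (-0.16 to 0.06), Slc39a8 (-0.05 to 0.04) and Slc44a1 (-0.0025 to 0.07). The cause of these turns was not tested, and all are smaller than 0.2. No paired analysis was possible because the groups share no replicate numbers. Weak signal over background limits the 70 member probe sets below the filter.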
